A study of Homo sapiens with 16 samples.

Results

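The clustered histone genes are the HIST1, HIST2, HIST3 and HIST4 genes, which lie in groups on human chromosomes 6, 1 and 12 and encode the linker histone H1 and the core histones H2A, H2B, H3 and H4. They were taken by symbol from the deposited table of raw read counts, and a gene was kept where its mean count over the 16 libraries was at least 10. This gave 44 members of 73 clustered histone rows and of 25370 genes in all: 4 of type H1, 11 of H2A, 13 of H2B, 8 of H3 and 8 of H4. By cluster, 38 members belonged to HIST1, 4 to HIST2, 1 to HIST3 (HIST3H2A) and 1 to HIST4 (HIST4H4). Just inside the limit were HIST1H1D, with a mean count of 10.6, and HIST1H4A, with 11. Just outside were HIST1H3J, with 9.81, and HIST2H3D, with 9.44.

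HMC3, an established human microglial cell line, was treated for 24 h with vehicle, 0.1 nM estradiol (E2), 400 nM ketamine, 400 nM (2R,6R)-hydroxynorketamine or 400 nM (2S,6S)-hydroxynorketamine (HNK), or with E2 together with each of the 3 drugs. All 8 groups, vehicle included, were kept in serum-free medium during treatment, and each was given as 2 RNA-seq libraries. The labels do not say that the libraries came from separate cultures, so the p-values measure the spread between these libraries, which may be technical. All cells were of 1 line, and the 7 comparisons with vehicle shared the same 2 vehicle libraries.

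The core histones pack DNA into nucleosomes, and the linker histone H1 binds the DNA where it enters and leaves them. Most clustered histone genes are transcribed in S phase, when new DNA must be packed, with the help of the activator NPAT. Their messenger RNAs end in a stem-loop held by the stem-loop binding protein SLBP in place of a poly(A) tail, and they are degraded when replication stops. Several of them, HIST1H1C and HIST1H2BK among them, are also known to give polyadenylated transcripts in cells that are not replicating.

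The stem-loop is shown because it is the feature that sets these messages apart, and the rule for membership did not use it. A search of the GRCh37 exons, extended by 100 bases downstream, found the 16-base histone stem-loop in 42 of the 42 members for which a gene model was found; HIST1H2BF and HIST1H2BG had none. It was found in 605 of 15131 other tested genes (4.00%), and in 2 of 476 other genes with a short exonic length (0.42%), though 11 of the 42 members were longer than the limit of that set. The 3 commonest forms follow, 5′ to 3′ on the gene's strand, with the paired stem in capitals and the loop in lower case. The first was shared by 24 members, among them HIST1H1C, HIST1H1E and HIST1H1B; the second by 6 members, all of type H4; and the last by 5 members, HIST1H2BK, HIST1H2BD, HIST1H2BJ, HIST1H2BC and HIST1H3G.
HIST1H1C (chr6:26055972-26055987, GRCh37, minus strand): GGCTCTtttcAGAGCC
HIST1H4J (chr6:27792237-27792252, GRCh37, plus strand): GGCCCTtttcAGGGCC
HIST1H2BK (chr6:27114145-27114160, GRCh37, minus strand): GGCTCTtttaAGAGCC

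The promoters of the H1 genes are shown because these genes, which share a promoter element, differed in direction in the results. RefSeq promoter sequences on GRCh38.p14 were found for 39 of the 44 members, and the 250 bases before the start of each were searched on both strands for 4 motifs. The H1 box, AAACACA, was in 4 of 4 H1 promoters and in 0 of the other 35, against 4.95% of 27303 promoters. The CCAAT box, CCAAT, was in 34 members (87.2%, against 33.0%), and the TATA box, TATAAA, in 25 (64.1%, against 11.1%). The octamer, ATTTGCAT, was in 17 members (43.6%, against 1.66%), of which 7 were among 10 H2A and 9 among 12 H2B promoters. CCAAT was in all H1, H2A, H2B and H3 promoters searched but in 1 of 6 of type H4. A match is a run of letters and not a bound site. The 150 bases before the start of 4 genes follow, on the gene's strand, with matches to these motifs on either strand in capitals.
HIST1H1C (chr6:26056471-26056620, GRCh38.p14, minus strand): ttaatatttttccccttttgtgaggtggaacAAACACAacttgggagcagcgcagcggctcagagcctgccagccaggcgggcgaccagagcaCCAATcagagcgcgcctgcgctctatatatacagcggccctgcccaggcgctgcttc
HIST1H1E (chr6:26156179-26156328, GRCh38.p14, plus strand): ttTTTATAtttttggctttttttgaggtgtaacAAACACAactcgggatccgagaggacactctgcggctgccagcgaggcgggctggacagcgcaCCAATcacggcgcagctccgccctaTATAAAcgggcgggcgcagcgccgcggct
HIST1H1B (chr6:27867589-27867738, GRCh38.p14, minus strand): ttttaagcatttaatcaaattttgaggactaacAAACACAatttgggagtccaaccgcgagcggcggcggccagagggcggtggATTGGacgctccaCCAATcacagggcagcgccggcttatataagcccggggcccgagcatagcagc
HIST1H2BK (chr6:27146859-27147008, GRCh38.p14, minus strand): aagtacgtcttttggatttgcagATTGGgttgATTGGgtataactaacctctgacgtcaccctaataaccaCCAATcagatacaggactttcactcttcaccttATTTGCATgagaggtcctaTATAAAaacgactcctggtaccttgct

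The libraries held 55300614 to 81646165 counts each, of which the members took 8020 to 12599. HIST1H2BK, an H2B gene, took 34.3% of the member counts and HIST1H1C, an H1 gene, 24.6%, both not corrected for gene length. Levels are given below as CPM, the count scaled to the same library total after TMM normalization, and 32 of the 44 members had a mean count under 100. Defining microglial markers were near the bottom of the scale: AIF1, CX3CR1, P2RY12, TMEM119, ITGAM, PTPRC, SPI1 and TYROBP had at most 7 counts in any library. Of the other 3 of the 11 listed, CSF1R (0.405 to 1.04 CPM) and TREM2 (0.344 to 1.30 CPM) were detected in every library, and CD68 lay at 17.4 to 23.4 CPM. The mesenchymal genes COL1A1 (3589 to 5344 CPM) and FN1 (12160 to 17590 CPM) were abundant in every library, and COL3A1 had at most 6 counts. In bulk RNA, fewer cells expressing a gene and less RNA per cell cannot be told apart.

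Reads of the members were not equally distinct. Of the 42 members with a gene model, 32 had no 100-base exonic window repeated elsewhere in the GRCh37 genome. Fewer than 50% of windows were unique in HIST1H4K (8.68%), HIST1H4J (9.31%), HIST2H2BC (22.5%), HIST1H2AJ (38.2%), HIST1H2AI (41.2%) and HIST2H2BF (49.7%), so the values of these 6 are uncertain. Exons of 7 members, HIST1H2AC, HIST1H2BC, HIST2H2BC, HIST1H2AM, HIST1H3D, HIST1H4H and HIST2H2BF, overlapped another gene model, whose reads may be mixed with theirs, and the strand setting of the counting is not given in the sources used here. Of the 29 rows outside the limit, 9 were at 0 in every library, among them the near-identical pairs HIST2H2AA3 and HIST2H2AA4, HIST2H3A and HIST2H3C, and HIST2H4A and HIST2H4B.

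The comparisons with vehicle ask how each exposure changed these genes. A member passed where edgeR's quasi-likelihood test, adjusted by Benjamini-Hochberg over the 16004 genes tested, gave an adjusted p under 0.05. After E2, 3 members rose and 4 fell, against 62.5% of all genes tested that passed in either direction. After ketamine 2 rose and 4 fell (background 59.3%), after (2R,6R)-HNK 8 rose and 3 fell (66.6%), and after (2S,6S)-HNK 2 rose and 8 fell (67.9%). With E2 present, 6 rose and 3 fell with ketamine (71.7%), 2 rose and 15 fell with (2R,6R)-HNK (69.7%), and 1 rose and 21 fell with (2S,6S)-HNK (59.7%).

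The share of the 44 members that passed was below the background in each of these comparisons. Among the 3028 tested genes with a mean count from 10 to 100, the share that passed was 12.98% after E2, 17.5% after ketamine, 18.4% after (2R,6R)-HNK, 27.0% after (2S,6S)-HNK, 25.7% after E2+ketamine, 32.0% after E2+(2R,6R)-HNK and 24.04% after E2+(2S,6S)-HNK. Among the 32 members under that count it was 12.5%, 9.38%, 18.8%, 15.6%, 12.5%, 28.1% and 43.8%, in the same order. By direction, of all genes tested 29.9% rose and 32.7% fell after E2, 26.8% and 32.5% after ketamine, 31.7% and 34.9% after (2R,6R)-HNK, 32.1% and 35.8% after (2S,6S)-HNK, and 34.3% and 37.4% after E2+ketamine. After E2+(2R,6R)-HNK 33.4% rose and 36.3% fell, against 2 and 15 of the 44 members. After E2+(2S,6S)-HNK 24% rose and 35.7% fell, against 1 and 21 of the 44.

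The median log2 fold change of the 44 members was -0.09 after E2, -0.10 after ketamine, -0.11 after (2R,6R)-HNK, -0.27 after (2S,6S)-HNK, -0.14 after E2+ketamine, -0.45 after E2+(2R,6R)-HNK and -0.60 after E2+(2S,6S)-HNK, while that of all genes tested lay between -0.06 and 0.00. The members' medians moved with the vehicle library used: without vehicle replicate 1 they were 0.03 after E2, 0.06 after (2R,6R)-HNK and 0.03 after E2+ketamine, and they were -0.05 after ketamine, -0.23 after (2S,6S)-HNK, -0.30 after E2+(2R,6R)-HNK and -0.46 after E2+(2S,6S)-HNK. Without vehicle replicate 2 they lay between -0.86 and -0.23, and with a correction for the GC content and length of genes between -0.73 and -0.20. The fitted value was below 0 for 41 members after E2+(2R,6R)-HNK, where it was so for 51.3% of all genes tested, for 40 after E2+(2S,6S)-HNK (55.9%) and for 27 after E2 (50.2%). The members that passed and moved by 1 or more on the log2 scale had all fallen: 1 each after E2, ketamine and (2R,6R)-HNK (background 1.81%, 3.56% and 3.75%), 2 after (2S,6S)-HNK (9.08%), 0 after E2+ketamine (11%), 5 after E2+(2R,6R)-HNK (11.5%) and 7 after E2+(2S,6S)-HNK (5.85%).

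Over the 7 treatments, 27 members passed at least once, as did 86.5% of all genes tested and 55.4% of those with a mean count from 10 to 100. Of the 27, 19 passed only as lower (40.2% of all genes tested), 4 only as higher (34.6%) and 4 in both directions (11.8%), depending on the treatment. Among the 32 members with a mean count under 100, 14 passed only as lower, 2 only as higher and 2 in both directions. The shares among genes with a mean count from 10 to 100 were 22.2%, 32.5% and 0.694%. Fitted values were below 0 in all 7 treatments for 16 members (33.4% of all genes) and above 0 in all 7 for 2, HIST1H1C and HIST3H2A (26.6%). Of the 32 members under a mean count of 100, 14 were below 0 in all 7 treatments and 0 were above. The shares among genes with a mean count from 10 to 100 were 18.1% and 25.9%. The 7 treatments shared the vehicle libraries, so these patterns are not 7 separate observations.

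**Figure D1:**
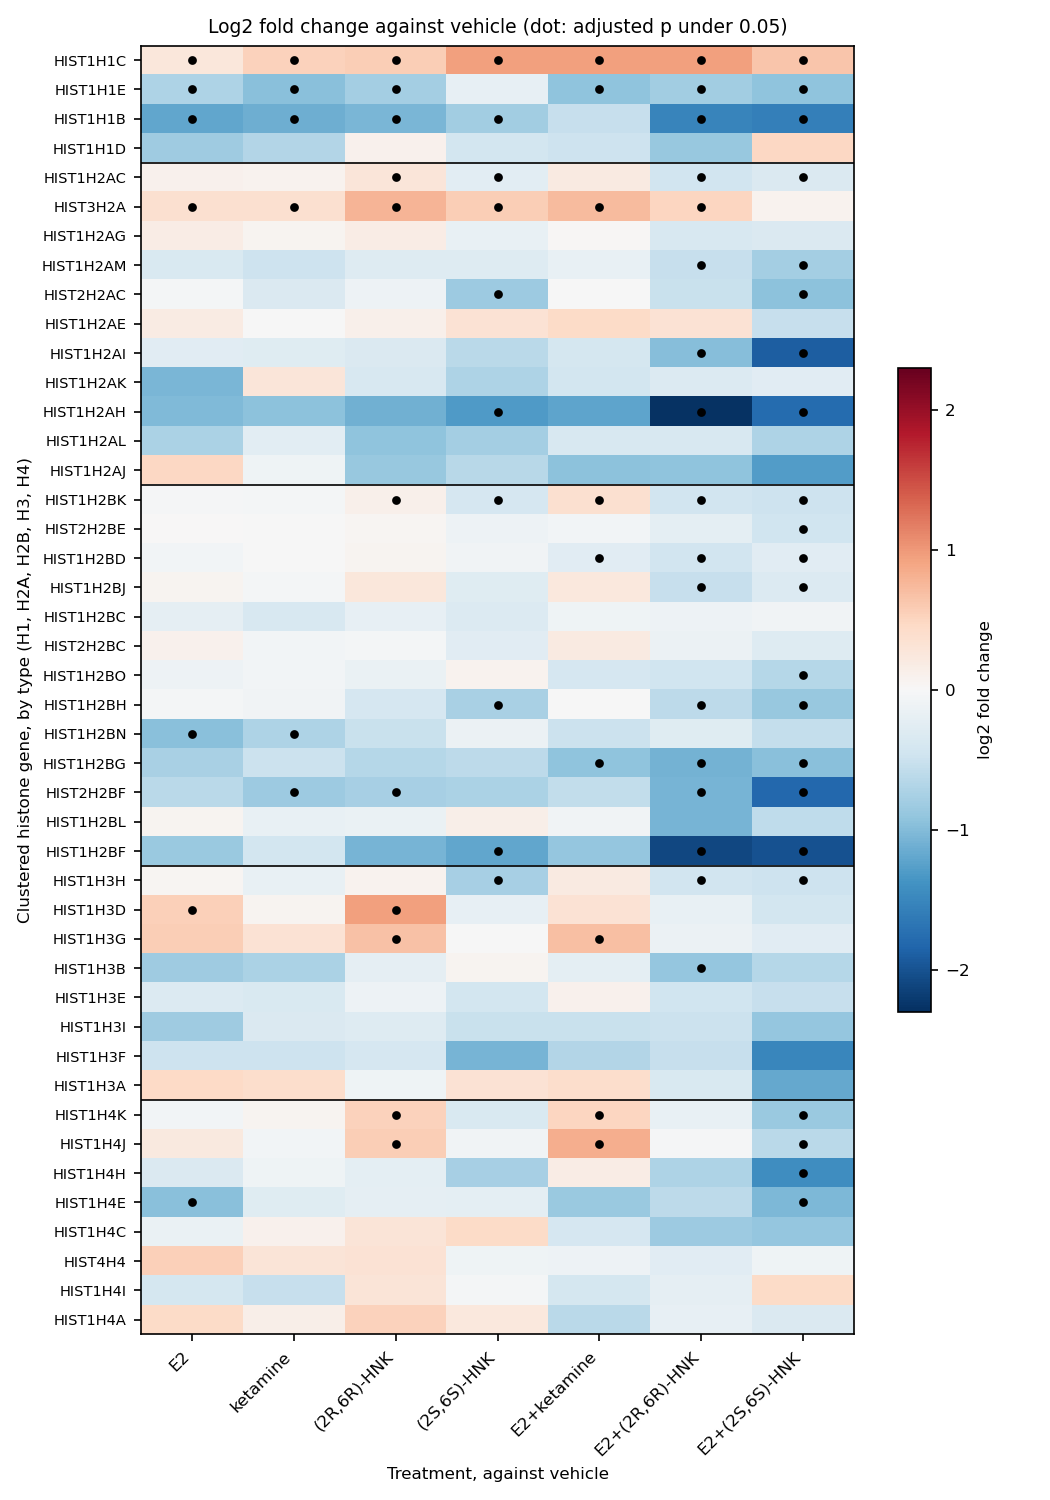
Log2 fold changes against vehicle (color) of the 44 clustered histone genes (rows, by type and, within a type, by mean CPM) in the 7 treatments (columns); black dots mark an adjusted p under 0.05 (edgeR). HIST1H1C is red and dotted in all 7 columns, and the columns with most dots are E2+(2R,6R)-HNK, with 17, and E2+(2S,6S)-HNK, with 22. The rise of HIST1H1C after E2 no longer passed with the GC and length correction (0.02).

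Among the linker histones, HIST1H1C rose in all 7 treatments, HIST1H1E fell in 6 and HIST1H1B fell in 6. The rise of HIST1H1C after E2 no longer passed with the GC and length correction (0.02, edgeR adjusted p = 0.774). HIST1H1C, HIST1H1E, HIST1H1B and HIST1H1D encode subtypes of H1 that share a globular domain and differ in their tails. All 4, among them HIST1H1D, which did not pass in any treatment, carry the H1 box and the first of the stem-loop forms printed above.

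HIST1H1C stood at 24.3 and 22.0 CPM in the vehicle libraries. It was at 27.5 and 28.0 CPM with E2, at 33.3 and 33.6 with ketamine, at 35.0 and 33.5 with (2R,6R)-HNK and at 44.6 in both libraries with (2S,6S)-HNK. It was at 44.2 and 44.9 CPM with E2+ketamine, 45.3 and 44.2 with E2+(2R,6R)-HNK and 34.9 and 37.5 with E2+(2S,6S)-HNK. All 14 treated libraries were thus above both vehicle libraries. In a given treatment, both libraries lay above both vehicle libraries for 33.2% to 41% of all genes tested, and below them for 40.2% to 44.8%. The log2 fold change of HIST1H1C was 0.26 ± 0.05 (SE) after E2, 0.53 ± 0.05 after ketamine and 0.57 ± 0.05 after (2R,6R)-HNK, with edgeR adjusted p of 3.88e-05, 1.38e-12 and 1.65e-13. It was 0.95 ± 0.05 after (2S,6S)-HNK, 0.94 ± 0.05 after E2+ketamine, 0.95 ± 0.05 after E2+(2R,6R)-HNK and 0.64 ± 0.05 after E2+(2S,6S)-HNK, and the largest of these 4 edgeR adjusted p was 3.72e-15. Each of the 7 calls of HIST1H1C was kept when any single library was left out; after E2, its value without vehicle replicate 2 was 0.19.

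HIST1H1E was at 4.27 and 3.84 CPM in vehicle and between 1.80 and 2.55 CPM in 12 treated libraries, those of every treatment but (2S,6S)-HNK. With (2S,6S)-HNK it was at 4.25 and 2.85 CPM, so that 1 library lay within the vehicle range and the other below it. HIST1H1E fell by 0.71 ± 0.17 (SE) on the log2 scale after E2, by 0.97 ± 0.17 after ketamine and by 0.79 ± 0.17 after (2R,6R)-HNK, with edgeR adjusted p of 0.000337, 2.4e-06 and 6.85e-05. It fell by 0.93 ± 0.18 after E2+ketamine, by 0.80 ± 0.17 after E2+(2R,6R)-HNK and by 0.93 ± 0.17 after E2+(2S,6S)-HNK, and its log2 fold change after (2S,6S)-HNK was -0.20. The 6 calls of HIST1H1E were kept when any single library was left out.

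HIST1H1B was at 1.77 and 1.04 CPM in vehicle, so the vehicle libraries differed more for this gene than for the other 2. Its levels were 0.46 and 0.76 CPM with E2, 0.62 and 0.66 with ketamine, 0.73 and 0.63 with (2R,6R)-HNK and 0.91 and 0.71 with (2S,6S)-HNK. They were 1.08 and 0.85 CPM with E2+ketamine, 0.40 and 0.57 with E2+(2R,6R)-HNK and 0.34 and 0.62 with E2+(2S,6S)-HNK. Of the 14 treated libraries, 13 were below both vehicle libraries, and 1 with E2+ketamine lay between them. HIST1H1B fell by 1.53 ± 0.33 (SE) on the log2 scale after E2+(2R,6R)-HNK and by 1.56 ± 0.33 after E2+(2S,6S)-HNK, with edgeR adjusted p of 6.39e-05 and 6.65e-05. Its log2 fold change was -1.20 after E2, -1.13 after ketamine, -1.04 after (2R,6R)-HNK and -0.79 after (2S,6S)-HNK. Without vehicle replicate 1 these 4 calls were lost, with values of -0.77, -0.70, -0.61 and -0.36 and edgeR adjusted p of 0.0991, 0.127, 0.18 and 0.444. The call after (2S,6S)-HNK was also lost without (2S,6S)-HNK replicate 2 (-0.62, edgeR adjusted p = 0.164).

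HIST1H1D, at 0.048 to 0.34 CPM, did not pass in any treatment. The summed level of the 4 H1 genes was 28.8 ± 2.58 CPM (SD, n = 2) in vehicle, 31.0 ± 0.47 with E2, 36.3 ± 0.57 with ketamine, 37.5 ± 1.06 with (2R,6R)-HNK, 49.1 ± 1.27 with (2S,6S)-HNK, 47.8 ± 0.86 with E2+ketamine, 47.7 ± 0.81 with E2+(2R,6R)-HNK and 39.1 ± 2.4 with E2+(2S,6S)-HNK. HIST1H1C made up 79.3% to 81.6% of the H1 counts in vehicle and 89.2% to 93.9% in the treated libraries. The ratio of HIST1H1C to HIST1H1E counts was 5.69 and 5.73 in vehicle and rose to 10.5 at the lowest and 24.2 at the highest treated library. These ratios compare the same 2 genes between libraries and, not being corrected for length, do not give their relative abundance.

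**Figure D2:**
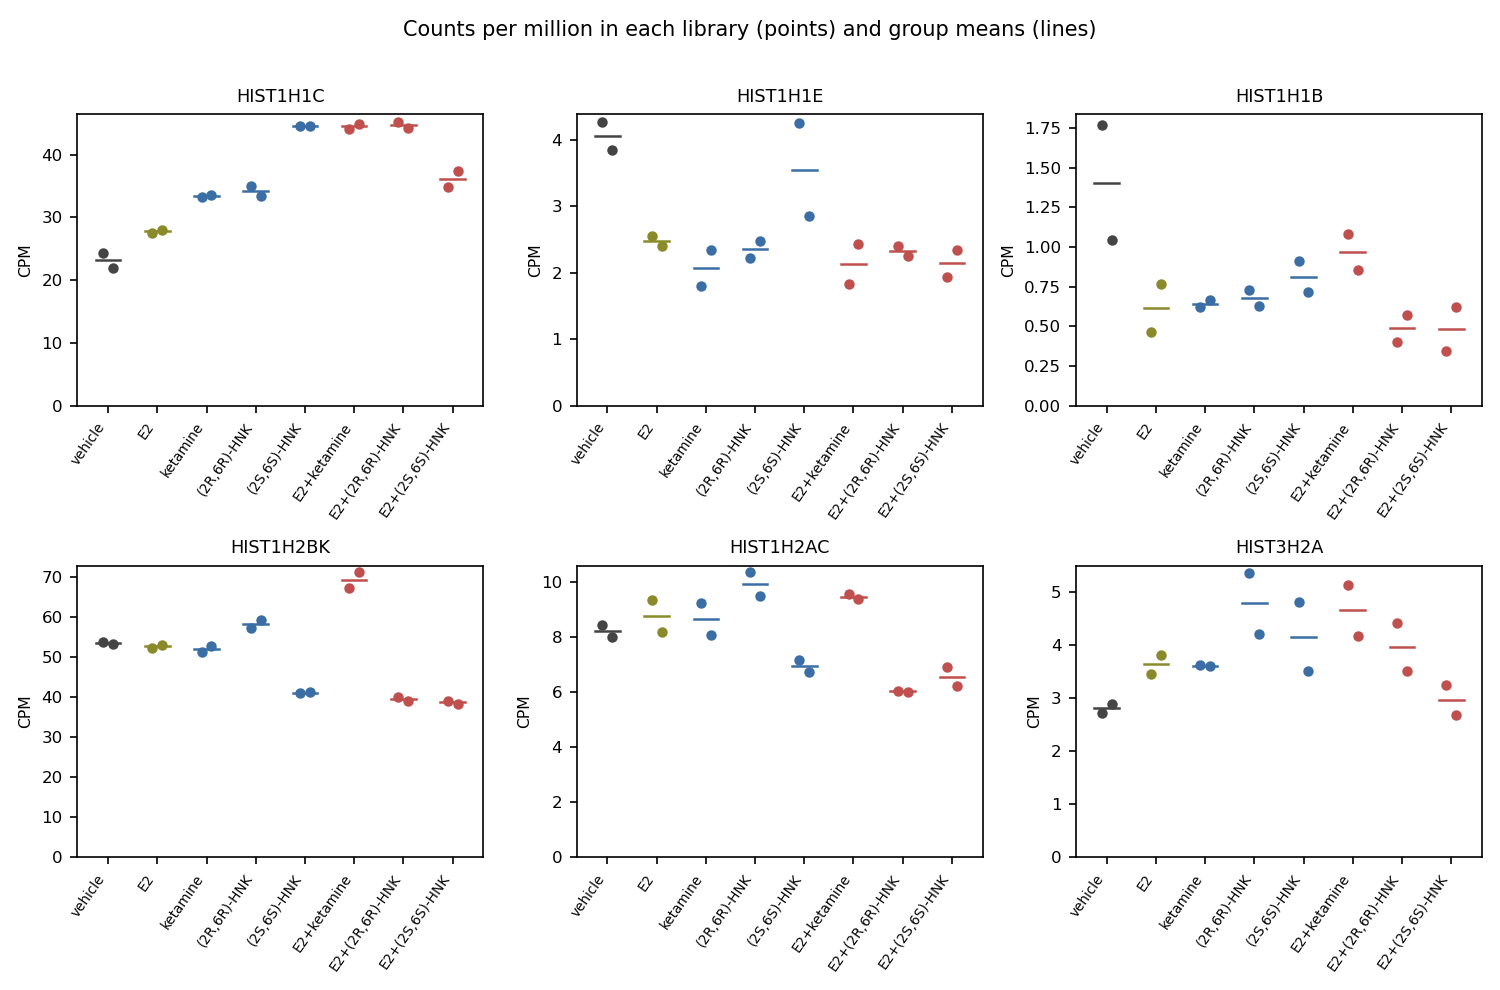
CPM (vertical axes, linear and starting at 0) of 6 clustered histone genes in each library (points, 2 per group) with the group mean (lines) in the 8 groups (horizontal axes; gray vehicle, olive E2, blue drug alone, red E2 with a drug). HIST1H1C lies above vehicle in all treated libraries, HIST1H1E below it in all groups but (2S,6S)-HNK, and HIST1H2BK is at 67.4 and 71.2 CPM with E2+ketamine against 38.4 to 41.2 CPM with (2S,6S)-HNK and with E2 plus either HNK; the rise of HIST1H2BK over vehicle with E2+ketamine and (2R,6R)-HNK reversed under the GC and length correction.

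Of the H2B genes, which encode a partner of H2A in the nucleosome core, 9 of 13 fell after E2+(2S,6S)-HNK and 7 of 13 after E2+(2R,6R)-HNK, and none rose in these 2 groups. After (2S,6S)-HNK alone 3 of 13 fell. After the other treatments 1 to 2 of the 13 fell, and HIST1H2BK alone rose, in 2 of them.

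HIST1H2BK was at 53.9 and 53.3 CPM in vehicle, 52.4 and 53.1 with E2 and 51.3 and 52.7 with ketamine. It was at 57.3 and 59.2 CPM with (2R,6R)-HNK and at 41.0 and 41.2 with (2S,6S)-HNK. With E2 present it was at 67.4 and 71.2 CPM with ketamine, 40.1 and 39.1 with (2R,6R)-HNK and 39.1 and 38.4 with (2S,6S)-HNK. The groups thus fell into 3 levels, with (2S,6S)-HNK and the 2 combinations of E2 with an HNK lowest and E2+ketamine highest. HIST1H2BK fell by 0.38 ± 0.04 (SE) on the log2 scale after (2S,6S)-HNK, by 0.44 ± 0.04 after E2+(2R,6R)-HNK and by 0.47 ± 0.04 after E2+(2S,6S)-HNK, with edgeR adjusted p of 7.37e-11, 6.69e-13 and 1.93e-13. The log2 fold change of HIST1H2BK was 0.37 ± 0.04 after E2+ketamine and 0.12 ± 0.04 after (2R,6R)-HNK (edgeR adjusted p = 3.8e-11 and 0.0114), and both turned negative, to -0.11 and -0.24, when fold changes were corrected for the GC content and length of genes. The call after (2R,6R)-HNK was also lost without (2R,6R)-HNK replicate 2 (0.10, edgeR adjusted p = 0.11) and without vehicle replicate 2 (0.11, edgeR adjusted p = 0.068).

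The 4 next H2B genes by level were HIST2H2BE, HIST1H2BD, HIST1H2BJ and HIST1H2BC. HIST2H2BE was at 7.57 and 7.22 CPM in vehicle and at 5.32 and 5.43 with E2+(2S,6S)-HNK, the group in which it fell, by 0.46 ± 0.11 (SE) on the log2 scale (edgeR adjusted p = 0.000213). HIST1H2BJ was at 4.54 and 4.36 CPM in vehicle and at 2.92 and 3.27 with E2+(2R,6R)-HNK, where it fell by 0.53 ± 0.13 (edgeR adjusted p = 0.000331). HIST1H2BD was at 7.06 and 7.91 CPM in vehicle and at 5.31 and 5.78 with E2+(2R,6R)-HNK, where it fell by 0.43 ± 0.11 (edgeR adjusted p = 0.000503); with the GC and length correction the call was lost (-0.23, edgeR adjusted p = 0.0663). HIST1H2BC, at 1.90 to 2.97 CPM over all libraries, did not pass in any treatment, and neither did the HIST2H2BC row, at 1.70 to 2.60 CPM.

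The largest falls among H2B genes were of genes with few counts. HIST1H2BF had 35 and 26 counts in vehicle, 10 and 7 with E2+(2R,6R)-HNK and 8 and 10 with E2+(2S,6S)-HNK, and fell by 2.10 ± 0.57 (SE) and 2.00 ± 0.56 on the log2 scale (edgeR adjusted p = 0.000941 and 0.0018). HIST2H2BF, which is partly repeated and overlaps FCGR1A, had 74 and 45 counts in vehicle and 25 and 16 with E2+(2S,6S)-HNK, and fell there by 1.81 ± 0.37 (edgeR adjusted p = 3.64e-05). HIST1H2BG also fell with E2 plus each drug, with a log2 fold change of -0.92 in the ketamine group, -1.08 in that of (2R,6R)-HNK and -0.96 in the last. Without vehicle replicate 1 these calls of HIST1H2BG were lost (-0.74, -0.91 and -0.78), and so they were without E2+ketamine replicate 2 (-0.39), E2+(2R,6R)-HNK replicate 2 (-0.89) and E2+(2S,6S)-HNK replicate 1 (-0.94), each in its own comparison. The 2 vehicle libraries did not overlap the treated ones in these comparisons of HIST1H2BF, HIST2H2BF and HIST1H2BG. With E2 plus each drug the same held, in the lower direction, for 43% to 44.8% of all genes tested.

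Of the 11 H2A genes, 5 fell after E2+(2S,6S)-HNK, 4 after E2+(2R,6R)-HNK and 3 after (2S,6S)-HNK, and 1 or 2 rose in each treatment but E2+(2S,6S)-HNK. HIST3H2A, the single member of the HIST3 cluster, was at 2.73 and 2.89 CPM in vehicle and at 5.36 and 4.22 with (2R,6R)-HNK. It was at 4.82 and 3.51 CPM with (2S,6S)-HNK, 5.13 and 4.18 with E2+ketamine and 4.41 and 3.52 with E2+(2R,6R)-HNK. It was at 3.25 and 2.68 CPM with E2+(2S,6S)-HNK, where it overlapped vehicle. HIST3H2A rose by log2 fold changes of 0.78 ± 0.15 (SE) with (2R,6R)-HNK and 0.73 ± 0.16 with E2+ketamine (edgeR adjusted p = 1.36e-05 and 4.4e-05), and these 2 calls were kept without any single library.

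With E2 and with ketamine alone the log2 fold change of HIST3H2A was 0.37 each, and both calls were lost on leaving out vehicle replicate 1 (0.33 and 0.33) or vehicle replicate 2 (0.41 each). They were lost too without E2 replicate 2 (0.30), ketamine replicate 1 (0.36) or ketamine replicate 2 (0.37). The call of HIST3H2A with (2S,6S)-HNK (0.56) was lost without (2S,6S)-HNK replicate 1 (0.32), and that with E2+(2R,6R)-HNK (0.50) without E2+(2R,6R)-HNK replicate 1 (0.33). The calls with E2, ketamine and E2+(2R,6R)-HNK were also lost with the GC and length correction (0.25, 0.25 and 0.34).

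HIST1H2AC, the H2A gene with most counts, was at 8.45 and 8.02 CPM in vehicle, 6.06 and 6.00 with E2+(2R,6R)-HNK, 6.91 and 6.22 with E2+(2S,6S)-HNK and 10.4 and 9.51 with (2R,6R)-HNK. It fell by 0.45 ± 0.10 (SE) on the log2 scale with E2+(2R,6R)-HNK (edgeR adjusted p = 7.42e-05). With the GC and length correction that value was 0.03, and that with (2S,6S)-HNK was 0.22. That with E2+(2S,6S)-HNK was -0.09 and no longer passed, and that with (2R,6R)-HNK was 0.70. The log2 fold change of HIST1H2AC was -0.32 with E2+(2S,6S)-HNK, -0.24 with (2S,6S)-HNK and 0.28 with (2R,6R)-HNK, each of which passed and each of which was lost on leaving out at least 1 library. Without E2+(2S,6S)-HNK replicate 2 the value was -0.25, without (2S,6S)-HNK replicate 2 or vehicle replicate 1 it was -0.20 and -0.21, and without (2R,6R)-HNK replicate 1 or vehicle replicate 2 it was 0.21 and 0.24.

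The H2A genes that fell furthest were HIST1H2AH and HIST1H2AI. HIST1H2AH had 37 and 16 counts in vehicle, 7 and 6 with E2+(2R,6R)-HNK and 4 and 14 with E2+(2S,6S)-HNK. It fell by 2.28 ± 0.63 (SE) and 1.78 ± 0.60 on the log2 scale (edgeR adjusted p = 0.00122 and 0.00888). Without vehicle replicate 1 these values were -1.58 and -1.07 (edgeR adjusted p = 0.0919 and 0.269), and without E2+(2S,6S)-HNK replicate 1 the second was -1.002 (edgeR adjusted p = 0.243). HIST1H2AI, whose windows were mostly repeated, had 63 and 52 counts in vehicle and 20 and 17 with E2+(2S,6S)-HNK, and fell there by 1.90 ± 0.39 (edgeR adjusted p = 3.53e-05).

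The H3 and H4 genes, which encode the tetramer at the center of the nucleosome, had low counts, and 105 was the highest mean (HIST1H3H). HIST1H3D was at 1.01 and 1.12 CPM in vehicle and at 1.94 and 2.19 with (2R,6R)-HNK, where it rose by a log2 fold change of 0.94 ± 0.23 (SE; edgeR adjusted p = 0.000366). This was the largest rise of a member with (2R,6R)-HNK, and it was 0.57 with the GC and length correction. HIST1H3H was at 1.86 and 1.68 CPM in vehicle and at 1.004 and 1.09 with (2S,6S)-HNK, where it fell by 0.76 ± 0.22 on the log2 scale (edgeR adjusted p = 0.0019). HIST1H3G rose with (2R,6R)-HNK (0.68) and with E2+ketamine (0.70), but both calls were lost without vehicle replicate 2 (0.50 and 0.52), without (2R,6R)-HNK replicate 1 (0.67) and without E2+ketamine replicate 2 (0.54), and also with the GC and length correction (0.31 and 0.21).

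HIST1H4J and HIST1H4K, which share most of their sequence with other genes, were the H4 genes with most counts. HIST1H4J was at 1.14 and 1.34 CPM in vehicle, 2.36 and 2.10 with E2+ketamine and 0.80 and 0.82 with E2+(2S,6S)-HNK. Its log2 fold change was 0.84 ± 0.23 (SE) with E2+ketamine (edgeR adjusted p = 0.000968), and 0.26 (edgeR adjusted p = 0.357) after the GC and length correction. HIST1H4K was at 1.47 and 1.33 CPM in vehicle and 0.91 and 0.62 with E2+(2S,6S)-HNK, where it fell by 0.85 ± 0.23 on the log2 scale (edgeR adjusted p = 0.00158). HIST1H4H, at 53 and 52 counts in vehicle and 26 and 21 with E2+(2S,6S)-HNK, fell by 1.43 ± 0.36 (edgeR adjusted p = 0.000631). HIST4H4, the single member of the HIST4 cluster, was at 0.15 to 0.45 CPM and did not pass in any treatment.

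Summed over genes of a type, H2B stood at 84.7 ± 1.86 CPM (SD, n = 2) in vehicle, 97.9 ± 0.47 with E2+ketamine, 68.0 ± 1.1 with (2S,6S)-HNK, 63.2 ± 0.35 with E2+(2R,6R)-HNK and 62.0 ± 0.04 with E2+(2S,6S)-HNK. With E2+ketamine 1 of the 13 H2B genes, HIST1H2BK, rose and 2 fell, and 10 of the 13 had fitted values below 0. The rise of HIST1H2BK (0.37 on the log2 scale) turned to -0.11 with the GC and length correction. H2A stood at 19.1 ± 1.24 CPM in vehicle and 14.2 ± 0.41 with E2+(2S,6S)-HNK, and H4 at 5.24 ± 0.36 and 3.18 ± 0.27. The E2+(2S,6S)-HNK libraries were below both vehicle libraries for H2A, H2B, H3 and H4 and above them for H1. All 44 genes together stood at 144 ± 7.14 CPM in vehicle, 181 ± 1.06 with E2+ketamine and 123 ± 2.69 with E2+(2S,6S)-HNK. Without HIST1H2BK and HIST1H1C the sum was 67.3 ± 5.11 CPM in vehicle, 66.9 ± 2.14 with E2+ketamine, 51.3 ± 1.11 with E2+(2R,6R)-HNK and 47.9 ± 1.44 with E2+(2S,6S)-HNK, so that the totals of vehicle and E2+ketamine without these 2 genes overlapped. The sums are given as a description and were not tested.

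**Figure D3:**
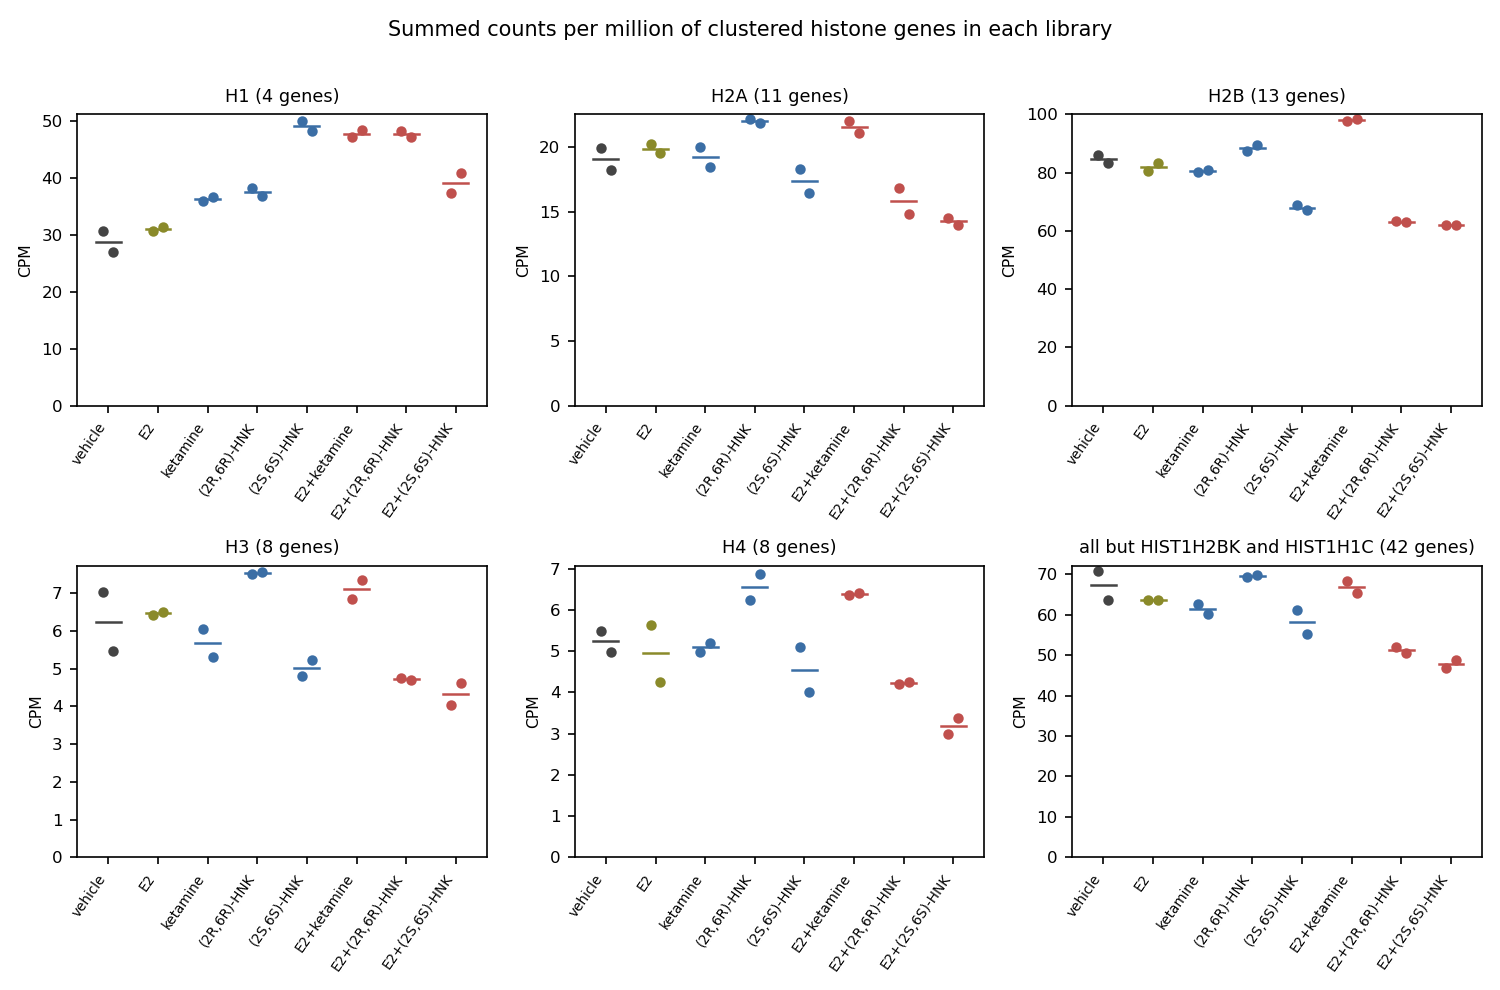
Summed CPM (vertical axes, linear and starting at 0) of the clustered histone genes of each type, and of all members but HIST1H2BK and HIST1H1C, in each library (points) with group means (lines) in the 8 groups (horizontal axes; colors gray for vehicle, olive for E2, blue for a drug alone and red for E2 with a drug). The H1 sum is 28.8 CPM in vehicle and 49.1 CPM with (2S,6S)-HNK, while the H2B sum is 84.7 and 68.0 CPM in the same groups.

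Base composition moved with these comparisons. Members had a median exonic GC content of 58.0%, against 48.7% for the genes tested, by gene models other than the UCSC ones used for counting. Over the 15180 genes with a gene model, the Spearman correlation of log2 fold change with GC content was 0.76 after E2, 0.65 after ketamine, 0.75 after (2R,6R)-HNK, 0.65 after (2S,6S)-HNK, 0.77 after E2+ketamine, 0.67 after E2+(2R,6R)-HNK and 0.45 after E2+(2S,6S)-HNK; these describe genes that share libraries and are given with no p. With a correction for GC content and length, fitted for 42 members, 1 rose and 6 fell after E2 (39.3% of all genes in that fit passed), 2 rose and 5 fell after ketamine (50.3%), 5 rose and 7 fell after (2R,6R)-HNK (47%) and 2 rose and 12 fell after (2S,6S)-HNK (58.4%). With E2 present, 4 rose and 9 fell with ketamine (54.1%), 1 rose and 16 fell with (2R,6R)-HNK (60.9%) and 1 rose and 21 fell with (2S,6S)-HNK (57.9%). With upper-quartile normalization 4 rose and 3 fell after E2 (62.8% of all genes in that fit passed), and 8 rose and 2 fell after E2+ketamine (71.4%). In that setting 2 rose and 12 fell after E2+(2R,6R)-HNK (70.1%), and 1 rose and 14 fell after E2+(2S,6S)-HNK (59%). After ketamine 2 rose and 3 fell (60.6%), after (2R,6R)-HNK 9 rose and 2 fell (67.3%), and after (2S,6S)-HNK 2 rose and 5 fell (68.1%). Under the GC and length correction HIST1H1C still passed as higher in 6 of 7 treatments (0.25 to 0.68) and had a log2 fold change of 0.02 after E2 (edgeR adjusted p = 0.774), and the 6 falls of HIST1H1E and of HIST1H1B each passed (-1.52 to -1.05 and -1.86 to -1.10).

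Leaving out a library changed many calls of genes with few counts. Of the calls with vehicle, those kept whichever library was left out were 2 of 7 after E2, 2 of 6 after ketamine, 4 of 11 after (2R,6R)-HNK, 3 of 10 after (2S,6S)-HNK, 5 of 9 after E2+ketamine, 8 of 17 after E2+(2R,6R)-HNK and 12 of 22 after E2+(2S,6S)-HNK. Vehicle replicate 1 mattered in 4 of the counts. Without it, 3 members passed after E2, 2 after ketamine, 4 after (2S,6S)-HNK and 9 after E2+(2R,6R)-HNK. The count also fell to 3 without E2 replicate 2 (after E2), to 3 without ketamine replicate 2 (after ketamine), to 5 without E2+ketamine replicate 2 (after E2+ketamine) and to 14 without E2+(2S,6S)-HNK replicate 1 (after E2+(2S,6S)-HNK).

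The 3 drugs were given at the same dose and time, which allows 6 pairs to be compared, 3 without E2 and 3 with it. (2R,6R)-HNK and (2S,6S)-HNK are mirror images of each other, and both are metabolites of ketamine that lack its N-methyl group and carry a hydroxyl group. Of the 44 members, 9 were higher and 2 lower with (2R,6R)-HNK than with (2S,6S)-HNK, against 43.5% of all genes tested that passed in either direction (21% higher, 22.4% lower). The 9 were HIST1H3D, HIST1H4K, HIST1H3H, HIST2H2AC, HIST1H3G, HIST1H4J, HIST1H2BJ, HIST1H2AC and HIST1H2BK, and the 2 were HIST1H1E and HIST1H1C. The calls of the 6 pairs were the same for every named member when p-values were adjusted over the 6 pairs together.

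Between the mirror images, the log2 difference of (2R,6R)-HNK minus (2S,6S)-HNK was 0.50 ± 0.04 (SE) for HIST1H2BK (edgeR adjusted p = 7.69e-14) and -0.38 ± 0.05 for HIST1H1C (edgeR adjusted p = 1.26e-08). For HIST1H3D it was 1.13 ± 0.24 (edgeR adjusted p = 0.000104), with 1.94 and 2.19 CPM against 0.73 and 1.14. For HIST1H1E it was -0.59 ± 0.18 (edgeR adjusted p = 0.0048), and without (2S,6S)-HNK replicate 1 it was -0.28 (edgeR adjusted p = 0.32), and without (2R,6R)-HNK replicate 1 it was -0.51 (edgeR adjusted p = 0.0713). HIST1H2BK therefore lay above vehicle with 1 mirror image and below it with the other on the uncorrected scale, and below vehicle with both after the GC and length correction.

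Ketamine and (2R,6R)-HNK differed in 5 members, all lower with ketamine (background 45.4%, of which 22.8% higher and 22.6% lower): HIST1H3D, HIST1H4J, HIST3H2A, HIST1H2BJ and HIST1H2BK. The log2 difference was -0.88 ± 0.22 (SE) for HIST1H3D and -0.16 ± 0.04 for HIST1H2BK (edgeR adjusted p = 0.000937 and 0.000883). With the GC and length correction the calls of HIST1H2BK and HIST1H4J were lost (-0.02 and -0.46). The count was 3 when any of the 4 libraries of this pair was left out, and HIST3H2A was at -0.22 (edgeR adjusted p = 0.369) without (2R,6R)-HNK replicate 1. No difference between ketamine and (2R,6R)-HNK was detected for HIST1H1C, for which the log2 difference was -0.04 with a 95% interval from -0.14 to 0.06, or for HIST1H1E, for which it was -0.18 with an interval from -0.54 to 0.18.

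Ketamine and (2S,6S)-HNK differed in 6 members, 4 higher and 2 lower with ketamine (background 46.1%, of which 22% higher and 24.2% lower). HIST1H2BH, HIST1H3H, HIST1H2BK and HIST1H2AC were higher, and HIST1H1E and HIST1H1C were lower. The log2 difference was 0.34 ± 0.04 (SE) for HIST1H2BK and -0.42 ± 0.05 for HIST1H1C (edgeR adjusted p = 4.32e-09 and 7.13e-10). For HIST1H1E it was -0.77 ± 0.17 (edgeR adjusted p = 0.000206), and -0.46 (edgeR adjusted p = 0.0722) without (2S,6S)-HNK replicate 1. Without (2S,6S)-HNK replicate 2, 3 members passed, and with the GC and length correction HIST1H2AC no longer did (0.18).

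With E2 present the pairs stood otherwise. E2+(2R,6R)-HNK differed from E2+(2S,6S)-HNK in 5 members, all higher with E2+(2R,6R)-HNK (background 54%, of which 29.1% higher and 25% lower): HIST1H2AE, HIST1H4K, HIST1H4J, HIST3H2A and HIST1H1C. For HIST1H1C the log2 difference was 0.31 ± 0.05 (SE; edgeR adjusted p = 3.67e-07), the opposite sign to that of the same drugs without E2, and 0.18 with the GC and length correction. That correction ended the calls of HIST3H2A, HIST1H4J and HIST1H4K (0.31, 0.44 and 0.54). No difference was detected for HIST1H2BK, at 0.03 with a 95% interval from -0.06 to 0.12, or at -0.10 with an interval from -0.18 to -0.01 and an edgeR adjusted p of 0.0666 with the correction. The count was 3 without E2+(2R,6R)-HNK replicate 1, E2+(2S,6S)-HNK replicate 1 or E2+(2S,6S)-HNK replicate 2.

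E2+ketamine exceeded E2+(2R,6R)-HNK in 9 members and was below it in 0 (background 52%, of which 25.3% higher and 26.7% lower), and exceeded E2+(2S,6S)-HNK in 20 and was below it in 0 (background 66.8%). Of all genes tested, 31.7% were higher and 35% lower with E2+ketamine than with E2+(2S,6S)-HNK, and the median log2 difference was 0.51 over the members and -0.05 over all genes. The 20 were 2 of 4 H1, 6 of 11 H2A, 6 of 13 H2B, 3 of 8 H3 and 3 of 8 H4 genes. In 6 of them the log2 difference was at least 1 (background 5.62%): HIST1H4H (1.59 ± 0.36 SE), HIST1H2AI (1.50 ± 0.40), HIST1H4J (1.46 ± 0.24), HIST1H4K (1.35 ± 0.23), HIST2H2BF (1.24 ± 0.39) and HIST1H1B (1.03 ± 0.35). Of these, HIST1H2AI, HIST2H2BF and HIST1H1B lost the call without E2+ketamine replicate 2 (0.94), E2+ketamine replicate 1 (0.96), and E2+ketamine replicate 1 (0.85) or E2+(2S,6S)-HNK replicate 1 (0.64), respectively.

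The most precise of the 20 was HIST1H2BK, with 67.4 and 71.2 CPM against 39.1 and 38.4, a log2 difference of 0.84 ± 0.04 (SE; edgeR adjusted p = 3.19e-23). Against E2+(2R,6R)-HNK the difference for HIST1H2BK was 0.81 ± 0.04 (edgeR adjusted p = 5.87e-22). HIST1H1C was higher with E2+ketamine than with E2+(2S,6S)-HNK by 0.30 ± 0.05 (edgeR adjusted p = 5.16e-07), a call that the GC and length correction removed (0.04, 95% interval from -0.06 to 0.13, edgeR adjusted p = 0.551). Between E2+ketamine and E2+(2R,6R)-HNK the difference for HIST1H1C was -0.01 (95% interval from -0.11 to 0.09) without the correction and -0.15 (95% interval from -0.24 to -0.06, edgeR adjusted p = 0.0052) with it. No difference was detected for HIST1H1E between E2+ketamine and E2+(2S,6S)-HNK (0.00, 95% interval from -0.38 to 0.38). With the GC and length correction, 16 members were higher and 0 lower with E2+ketamine than with E2+(2S,6S)-HNK (57.4% of all genes in that fit passed), and 8 were higher and 1, HIST1H1C, lower than with E2+(2R,6R)-HNK (52.3%). The calls lost against E2+(2S,6S)-HNK included HIST1H1B (0.73), HIST1H3D (0.46), HIST1H2AM (0.33) and HIST2H2BC (0.17).

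**Figure D4:**
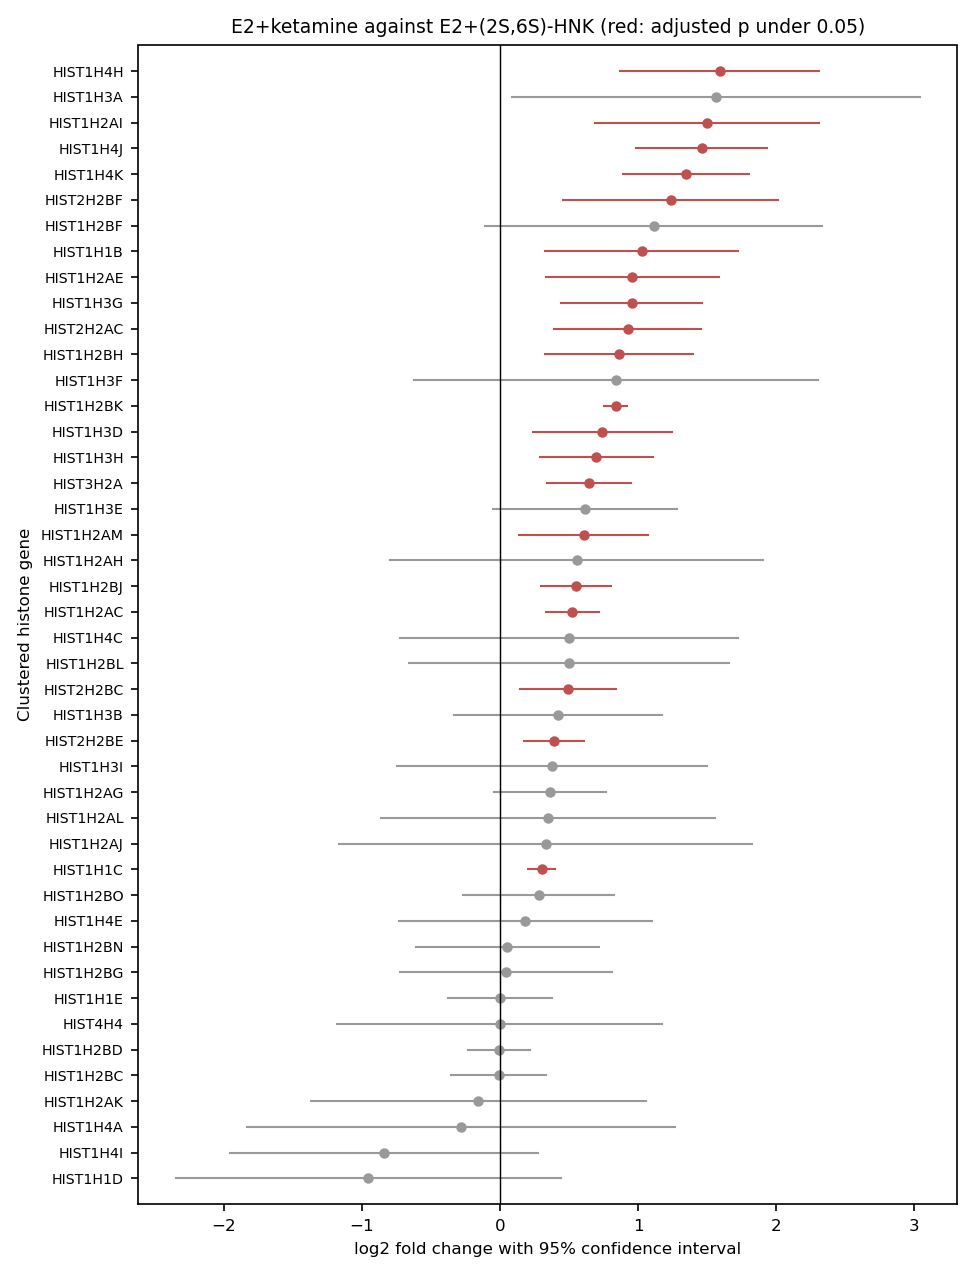
Log2 fold change (points, horizontal axis) of E2+ketamine against E2+(2S,6S)-HNK with its 95% confidence interval (lines) for the 44 clustered histone genes (vertical axis, in order of the fold change); red marks an adjusted p under 0.05 (edgeR). All 20 red genes lie to the right of 0, from 0.30 for HIST1H1C to 1.59 for HIST1H4H, and HIST1H2BK and HIST1H1C have the narrowest intervals, of which HIST1H1C no longer passed after the GC and length correction (0.04).

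Of the pair calls, those kept whichever library was left out were 7 of 11 between the mirror images, 2 of 5 for ketamine against (2R,6R)-HNK and 2 of 6 against (2S,6S)-HNK. With E2 present they were 1 of 5 for E2+(2R,6R)-HNK against E2+(2S,6S)-HNK, 6 of 9 for E2+ketamine against E2+(2R,6R)-HNK and 11 of 20 against E2+(2S,6S)-HNK.

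Whether a drug's effect depended on E2 was tested as the effect of the drug with E2 present minus its effect with E2 absent. With ketamine 5 members passed, all with a positive difference (background 37.5%, of which 24.5% positive and 13.1% negative). With (2R,6R)-HNK 2 were positive and 9 negative (background 56.6%, 31.5% and 25.2%), and with (2S,6S)-HNK 0 were positive and 4 negative (background 65.1%, 32.9% and 32.2%). For HIST1H2BK the difference was 0.44 ± 0.06 (SE) with ketamine and -0.53 ± 0.06 with (2R,6R)-HNK (edgeR adjusted p = 3.5e-08 and 9.23e-11). For HIST1H1C it was -0.57 ± 0.07 with (2S,6S)-HNK (edgeR adjusted p = 2.32e-09), which raised it without E2 by more than with E2. The 4 groups of each such test shared the vehicle and E2 libraries with the other drugs.

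Genes that act on histone messages or share their timing were looked at by list. All values of NPAT, SLBP and the lists are from the fit without the GC and length correction. Whether they hold with it was not tested. NPAT, the activator of clustered histone transcription, was at 38.9 and 40.3 CPM in vehicle and at 21.0 to 27.8 CPM in the treated libraries, and fell in all 7 treatments, by 0.62 ± 0.06 (SE) to 0.89 ± 0.06 on the log2 scale, with an edgeR adjusted p of at most 8.71e-13. SLBP was at 113.9 and 116.3 CPM in vehicle and at 92.5 and 93.3 with E2+ketamine, where it fell furthest, by 0.31 ± 0.03 (edgeR adjusted p = 8.71e-12). SLBP passed as lower in 5 treatments, and had log2 fold changes of -0.04 in each of (2S,6S)-HNK and E2+(2S,6S)-HNK, which did not pass.

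Of 31 genes of histone transcription and 3′ processing, 21 to 25 fell and 4 to 7 rose in each treatment, where 32.5% to 37.4% of all genes tested fell and 24% to 34.3% rose. Their median log2 fold change lay between -0.57 with (2S,6S)-HNK and -0.37 with E2 and with E2+(2S,6S)-HNK. Members of the list that fell by at least 1 were NCBP1, a subunit of the nuclear cap-binding complex, with (2S,6S)-HNK (-1.06), E2+ketamine (-1.06) and E2+(2R,6R)-HNK (-1.16); CPSF2 (-1.07), a cleavage factor, DCP2 (-1.27), a decapping enzyme, and ZNF473 (-1.001), a processing factor, with E2+ketamine; and LSM1 (-1.07) and the cyclin CCNE2 (-1.10) with E2+(2R,6R)-HNK.

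The replication-independent histone genes listed mostly give polyadenylated messages and are not confined to S phase. Of the 11 tested, 4 to 6 rose and 4 to 6 fell in each treatment, where 24% to 34.3% of all genes tested rose and 32.5% to 37.4% fell. H2AFZ, a variant of H2A, fell by 1.001 ± 0.02 (SE) on the log2 scale with (2S,6S)-HNK and by 1.15 ± 0.02 with E2+(2R,6R)-HNK (edgeR adjusted p = 2e-37 and 5.1e-40). H3F3C fell by 1.11 ± 0.38 with (2S,6S)-HNK. H1FX, a linker histone outside the clusters, rose with E2+ketamine by a log2 fold change of 1.17 ± 0.04 (edgeR adjusted p = 3.42e-30).

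Of 17 histone chaperones, 4 to 7 rose and 8 to 10 fell in each treatment, against 24% to 34.3% and 32.5% to 37.4% of all genes tested. SUPT16H, a subunit of the FACT complex, fell by 1.12 on the log2 scale with E2+ketamine. Of 42 S-phase genes, 7 rose and 30 fell with E2+(2S,6S)-HNK (24% and 35.7% of all genes tested). With E2+(2R,6R)-HNK 12 rose and 26 fell (33.4% and 36.3%), and with the others 13 to 18 rose and 18 to 24 fell (26.8% to 34.3% and 32.5% to 37.4%). Those that fell by at least 1 were RRM1 (-1.13), a subunit of ribonucleotide reductase, and POLA1 (-1.08), a DNA polymerase subunit, with E2+ketamine, and CLSPN (-1.09), a checkpoint protein, with E2+(2R,6R)-HNK. Of 20 G2 and M phase genes, 15 to 19 fell and 0 to 5 rose in each treatment, against 32.5% to 37.4% and 24% to 34.3% of all genes tested. Those that fell by at least 1 were in 6 of the 7 treatments. With E2+ketamine they were the kinesin KIF11 (-1.16), MKI67 (-1.09), NUSAP1 (-1.08), BUB1B (-1.07), HMMR (-1.06), BUB1 (-1.05) and CENPF (-1.04). With E2+(2R,6R)-HNK they were HMMR (-1.32), KIF11 (-1.12) and CENPF (-1.04), and with E2+(2S,6S)-HNK HMMR (-1.01). Without E2 they were HMMR (-1.24) and CENPF (-1.01) with ketamine, CENPF (-1.04) and MKI67 (-1.003) with (2R,6R)-HNK, and HMMR (-1.06) and KIF11 (-1.06) with (2S,6S)-HNK. The part of cell cycle position in the members' values was not tested.

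The 7 members listed as known to give polyadenylated transcripts were HIST1H1C, HIST1H2AC, HIST1H2BC, HIST1H2BD, HIST1H2BJ, HIST1H2BK and HIST2H2BE. They were among the 9 members with most counts. In E2+(2S,6S)-HNK 1 of them rose and 5 fell (24% and 35.7% of all genes tested), and in E2+(2R,6R)-HNK 1 rose and 4 fell (33.4% and 36.3%). In the other treatments 1 to 3 rose and 0 to 2 fell (26.8% to 34.3% and 32.5% to 37.4%).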

How the data were processed

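RNA-seq was done on 16 HMC3 libraries, 2 in each of 8 groups, taken from the labels. The deposited values are raw read counts per gene. Per the labels, the authors used TopHat2 2.0.14, Bowtie2 2.2.6 and featureCounts 1.4.6 on hg19. Their methods name other versions of TopHat and Bowtie. The methods state that uniquely mapped, non-discordant read pairs were counted against UCSC gene models. Such counting leaves out reads that map to more than 1 place. Whether this left near-identical histone copies without counts was not tested. HIST1H4K and HIST1H4J, with 8.68% and 9.31% unique windows, had mean counts of 93.9 and 91.7. Libraries were made with a NuGEN Ovation kit, and how fully it captures messages without a poly(A) tail was not tested. Among counts of 1 to 9, 65.8% were even, against 49.9% of counts of 500 or more, so an alternative with halved counts was run.

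Genes were filtered with filterByExpr and normalized by TMM, and all 8 groups were fitted in 1 model with edgeR 4.0.16's quasi-likelihood test (limma 3.58.1, R 4.3.3), with 8 residual degrees of freedom and Benjamini-Hochberg adjustment within each of 16 comparisons over 16004 genes. The threshold was an adjusted p of 0.05. Alternatives were DESeq2 1.42.0, upper-quartile normalization, other filters, the compared groups alone, the replicate number as a block, halved counts, a per-library loess correction (span 0.5) for GC content and length, members with at least 50% unique windows, and leaving out each library. Sequences and gene models were read with Python 3.11.15. GC content, length and unique windows came from GENCODE gene models on GRCh37, while the authors counted on UCSC gene models. These values may therefore differ from those of the counted region. HIST1H2AC, for example, had a model of 1668 bases with 42% GC, and HIST1H2BK one of 495 bases with 58.2% GC. How far this affected the correction was not tested. The members and lists were chosen with earlier results of these data known. Named genes were the 15 members with the highest CPM, the 3 largest rises and falls without overlap in each comparison, the top member of each type and cluster, members that passed an interaction, SLBP, NPAT, and list genes changed by at least 1 on the log2 scale. Others named were chosen after their values were seen.

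On counts simulated for ketamine against vehicle (16004 genes, 200 of them moved by 1 on the log2 scale), the test recovered 80.8% of the changed genes that were not members and 25 of 44 members, but 7 of 22 members with a mean count under 50. In the data 59.3% of the genes tested passed in this comparison, so an adjusted p of 0.05 stood at a different raw p. These shares therefore do not give what the test would recover in the data.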

Additional observations from a re-analysis of the deposited data

Results flagged for a closer look

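In 20 cases the effect of a drug on a clustered histone gene differed between cells with and without E2 by the interaction test of edgeR, adjusted by Benjamini-Hochberg. Values are the log2 effect with E2 present minus that with E2 absent, ± SE.

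With ketamine, the difference was 0.44 ± 0.06 for HIST1H2BK (edgeR adjusted p = 3.5e-08), 1.79 ± 0.47 for HIST1H1B, 0.75 ± 0.25 for HIST1H1E, 1.32 ± 0.53 for HIST1H3B and 1.19 ± 0.47 for HIST1H2BN. HIST1H3B, HIST1H2BN and HIST1H1E were 0.51, 0.75 and 0.67, and no longer passed, without vehicle replicate 1. HIST1H3B was also lost without either E2 replicate, ketamine replicate 2 or E2+ketamine replicate 2 (0.97 to 1.399), HIST1H2BN without E2 replicate 2, ketamine replicate 2 or E2+ketamine replicate 2 (0.79 to 1.02), and HIST1H1E without ketamine replicate 1 or E2+ketamine replicate 2 (0.57 and 0.53).

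With (2R,6R)-HNK, the core histone genes HIST1H3D (-1.65 ± 0.33), HIST1H3G (-1.37 ± 0.36), HIST1H2BJ (-0.86 ± 0.18), HIST1H4J (-0.83 ± 0.33), HIST1H2AC (-0.82 ± 0.14), HIST1H2AG (-0.70 ± 0.28), HIST3H2A (-0.65 ± 0.22), HIST1H2BK (-0.53 ± 0.06) and HIST1H2BD (-0.43 ± 0.15) had negative differences. HIST1H2BN (1.198 ± 0.46) and HIST1H1E (0.70 ± 0.25) had positive ones, and both were lost without vehicle replicate 1 (0.76 and 0.62). HIST1H2BN was also lost without any of 3 other libraries (0.72 to 1.19) and HIST1H1E without either of 2 (0.62 and 0.65). Of the negative ones, HIST1H4J, HIST1H2AG and HIST1H2BD were each lost without any of 4 libraries, vehicle replicate 1 among them (-0.71, -0.56 and -0.35), and HIST3H2A without (2R,6R)-HNK replicate 1 (-0.46) or E2+(2R,6R)-HNK replicate 2 (-0.50). The value closest to 0 among these was -0.38 for HIST1H4J (without E2 replicate 1), -0.48 for HIST1H2AG (without E2+(2R,6R)-HNK replicate 2) and -0.26 for HIST1H2BD (without E2 replicate 2). The GC and length correction moved HIST1H2BK to -0.21 and ended the calls of HIST1H2AG (-0.31), HIST1H4J (-0.42) and HIST1H2BN (0.76).

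With (2S,6S)-HNK, the difference was -0.57 ± 0.07 for HIST1H1C, -0.85 ± 0.22 for HIST3H2A, -0.36 ± 0.15 for HIST2H2BE and -1.05 ± 0.44 for HIST1H2AE, which was -0.68 and no longer passed without vehicle replicate 2. HIST1H2AE and HIST2H2BE were each lost without any of 5 libraries, and HIST2H2BE was -0.21 without (2S,6S)-HNK replicate 1. With the GC and length correction HIST1H1C was -0.23 and HIST1H2AE no longer passed (-0.77). Calls kept whichever library was left out were 2 of 5 with ketamine, 5 of 11 with (2R,6R)-HNK and 2 of 4 with (2S,6S)-HNK.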

How the results depend on the processing

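Members with few counts limited precision, and of 158 calls 84 were lost without at least 1 library. Under the GC and length correction 109 of 152 calls held, 38 no longer passed and 5 reversed: HIST1H2BK with (2R,6R)-HNK (-0.24) and E2+ketamine (-0.11), HIST1H2AC with (2S,6S)-HNK (0.22) and E2+(2R,6R)-HNK (0.0335), and HIST1H4K with E2+ketamine (-0.0927). That correction together with the replicate block gave -0.24, -0.11, 0.22, 0.0339 and -0.0927 for these, and 2 members in place of 5 for E2+(2R,6R)-HNK against E2+(2S,6S)-HNK. The cause was not tested.

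Counts of members that passed moved by over 1.5 times with DESeq2 after E2 (4 in place of 7, with 53.2% of all genes passing). They did so after ketamine (3 in place of 6, 51.6%) and (2S,6S)-HNK (6 in place of 10, 55.7%). So did the count for ketamine against (2R,6R)-HNK (3 in place of 5, 44.2%). The interactions with E2 of ketamine (3 in place of 5, 37%) and (2R,6R)-HNK (7 in place of 11, 52.3%) moved too. Counts after E2 with either HNK stayed within that limit. There 11 fell in place of 15 with (2R,6R)-HNK (58.4%), and 14 in place of 21 with (2S,6S)-HNK (50.7%). Of 158 gene calls, 36 no longer passed with DESeq2 and 19 with upper-quartile normalization. For E2+(2R,6R)-HNK against E2+(2S,6S)-HNK the count was 3 with the GC and length correction (31.2% of all genes passed). It was also 3 among members with mostly unique windows (54%). With upper-quartile normalization the interactions of ketamine and (2S,6S)-HNK gave 3 and 7 (36.7% and 65.3% of all genes passed). With at least 10 counts in every library the latter gave 7 in place of 4 (73.8%).

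With 1 library left out, counts ranged from 3 to 7 after E2, 2 to 6 after ketamine, 4 to 12 after (2S,6S)-HNK, 5 to 11 after E2+ketamine, 9 to 18 after E2+(2R,6R)-HNK and 14 to 22 after E2+(2S,6S)-HNK. They were 3 throughout for ketamine against (2R,6R)-HNK, 3 to 6 for ketamine against (2S,6S)-HNK and 3 to 5 for E2+(2R,6R)-HNK against E2+(2S,6S)-HNK. The interactions ranged from 2 to 6 with ketamine, 6 to 12 with (2R,6R)-HNK and 2 to 6 with (2S,6S)-HNK. A lone library left in a group was assumed to vary like the other groups.

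The labels do not say whether libraries with the same replicate number were handled together. Over 28 pairs of groups, replicate differences correlated between -0.03 and 0.05 over all genes tested, so no shift shared by replicate number was seen there. Over the members alone the correlations lay between -0.36 and 0.44. With the replicate block 157 of 158 gene calls and 16 of 16 counts held.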
